A study of Homo sapiens with 42 samples.

Results

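The 35 genes described here code for aminoacyl-tRNA synthetases, 19 for enzymes of the cytosol and 16 for enzymes of the mitochondrion. The rule that picks them uses gene symbols and no measured value, matched to the Ensembl identifiers of the deposited count tables, and all 35 were found among the 58243 gene IDs there. The cytosolic class held the symbols that end in 1 together with FARSA and FARSB, and the mitochondrial class held those that end in 2. The aspartate enzymes were not on the list. RNA was sequenced from K562, an established human line of chronic myeloid leukaemia cells that carry the BCR-ABL1 kinase. The mRNA groups were untreated cells (CTRL), 1 μM imatinib, which inhibits that kinase, for 1, 6 and 18 h (IM 1h, IM 6h, IM 18h), 5 μM JTE-607, which targets the endonuclease CPSF73 that cuts transcripts at their 3′ ends, for 1, 6 and 18 h (JTE 1h, JTE 6h, JTE 18h), and 110 mM KCl, an osmotic stress, for 1 and 3 h (KCl 1h, KCl 3h). The nuclear RNA groups were CTRL, IM 1h, IM 18h, JTE 1h and KCl 1h. Each of the 14 groups had 3 libraries, and every group is the same single line of cells.

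Aminoacyl-tRNA synthetases join each amino acid to its own tRNA, the step that fixes the meaning of the codons. Proteins made in the cytosol and proteins made inside the mitochondrion use separate sets of tRNAs and, for most amino acids, separate synthetases, all of them coded in the nuclear genome. GARS1 and KARS1 each serve both places, and EPRS1 carries the glutamate and the proline activity in 1 protein. Several cytosolic enzymes (EPRS1, IARS1, KARS1, LARS1, MARS1, QARS1 and RARS1) sit together in the multisynthetase complex. When amino acids run short, the transcription factor ATF4 raises many cytosolic synthetase genes along with genes of amino acid synthesis and transport, and 12 of the members are known for this response (AARS1, CARS1, EPRS1, GARS1, IARS1, LARS1, MARS1, NARS1, SARS1, TARS1, WARS1 and YARS1). They are called ATF4-responsive below, and the other 7 cytosolic genes are FARSA, FARSB, HARS1, KARS1, QARS1, RARS1 and VARS1.

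The start regions of the genes are shown first because the classes used below also differed in what their promoters hold. Promoter windows from RefSeq (GRCh38.p14, 250 bases before to 50 bases after the start) matched 30 of the 35 members; AARS2, LARS1, VARS1, VARS2 and YARS1 were not matched. They were searched on both strands for TGATGNAA, the core shared by composite C/EBP-ATF elements, which ATF4 can read. It lay in 7 of the 10 matched ATF4-responsive genes, in 0 of the 6 matched other cytosolic genes and in 1 of the 14 matched mitochondrial genes, against 4.46% of all 27305 genes and 3.62% of all 35116 windows in that table. In the ATF4-responsive genes the match lay close to the start, between 13 bases before it (IARS1) and 14 bases after it (NARS1), with the exceptions of GARS1 at 33 and AARS1 at 187 bases before. Each line gives the bases up to the end of the match in the direction of transcription, with the match in capitals.
AARS1, chr16:70289686-70289745, minus strand: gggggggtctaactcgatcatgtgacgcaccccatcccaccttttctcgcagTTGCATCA
CARS1, chr11:3057418-3057477, minus strand: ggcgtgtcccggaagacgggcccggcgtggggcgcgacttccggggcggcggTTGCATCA
GARS1, chr7:30594793-30594852, plus strand: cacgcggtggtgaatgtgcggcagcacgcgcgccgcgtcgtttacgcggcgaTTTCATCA
IARS1, chr9:92293703-92293762, minus strand: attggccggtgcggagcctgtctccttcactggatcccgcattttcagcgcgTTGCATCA
MARS1, chr12:57488012-57488071, plus strand: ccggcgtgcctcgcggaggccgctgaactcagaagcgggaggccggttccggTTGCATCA
NARS1, chr18:57621815-57621874, minus strand: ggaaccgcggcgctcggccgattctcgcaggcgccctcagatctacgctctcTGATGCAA
TARS1, chr5:33440915-33440974, plus strand: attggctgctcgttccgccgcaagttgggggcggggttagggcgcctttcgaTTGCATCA
The mitochondrial gene with a match was YARS2, 197 bases before the start. The match reads TTGCATCA in 5 of these 7 windows as printed, which is the reverse complement of the form in NARS1. A match is a description of the letters and not a site shown to be bound.

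The E-box CACGTG can be read by the MYC-MAX pair and is its own reverse complement. It was found in 4 of the 30 matched members (13.3%), against 8.77% of all genes and 7.26% of all windows. It lay in 3 of the 14 matched mitochondrial genes (MARS2, CARS2 and EARS2) and in 1 of the 16 matched cytosolic genes (IARS1, 186 bases before the start). The windows of the 3 mitochondrial genes are printed, with the E-box 11, 3 and 15 bases before the starts of MARS2, CARS2 and EARS2. MARS2 and EARS2 had the largest decreases of the mitochondrial enzymes after 18 h of imatinib, and CARS2 was not called there. NARS2, YARS2 and LARS2 were also called lower there, and their matched windows held no E-box. A link between the E-box and these changes was not tested.
MARS2, chr2:197705304-197705363, plus strand: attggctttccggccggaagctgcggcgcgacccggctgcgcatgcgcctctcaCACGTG
CARS2, chr13:110706513-110706572, minus strand: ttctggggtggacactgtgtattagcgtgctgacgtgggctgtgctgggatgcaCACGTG
EARS2, chr16:23557360-23557419, minus strand: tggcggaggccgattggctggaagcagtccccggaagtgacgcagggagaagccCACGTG

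Library totals ran from 16439848 to 62953314 counts in mRNA, where all but KCl 1h replicates 2 and 3 were at or below 22505595, and from 16175394 to 25103205 in nuclear RNA. All 35 members passed the filter on low counts in both fractions, among 18095 genes tested in mRNA and 21929 in nuclear RNA. Markers matched the label: the erythroid factor GATA1 was at 118 to 204 CPM (counts scaled to a common library total) in mRNA, while CD3E, a T cell gene, and ALB, a liver gene, stayed at or below 0.54 CPM in all libraries. MALAT1, a transcript kept in the nucleus, was at 13201 ± 2807 CPM in nuclear CTRL and 2662 ± 12.7 CPM in mRNA CTRL (mean ± SD, n = 3).

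In untreated cells the cytosolic enzymes were the more abundant class per length of exon. Their median was 61.0 CPM per kb in mRNA, from 8.26 ± 4.21 (CARS1, for cysteine) to 144 ± 29.1 (EPRS1). The mitochondrial median was 9.50 CPM per kb, and 15 of the 16 genes lay between 0.50 ± 0.25 (SARS2, for serine) and 27.02 ± 1.53 (RARS2, for arginine). IARS2, the mitochondrial isoleucine enzyme, was the exception at 74.9 ± 10.5 CPM per kb, next to its cytosolic partner IARS1 at 102 ± 13.2. HARS1, for histidine, was at 12.3 ± 0.38 CPM per kb, inside the mitochondrial range. In nuclear CTRL libraries the highest level per length was that of VARS1, for valine, at 128 ± 13.1 CPM per kb. The CPM in nuclear RNA was above that in mRNA for 13 of the 16 mitochondrial and 9 of the 19 cytosolic genes, a comparison across separately normalized fractions that was not tested. Some levels are set partly by the counting, which left out pairs over exons of several genes. The share of exon bases also in exons of other genes was 57.0% in SARS2, 22.0% in VARS2 and 21.8% in HARS2. It was 18.3% in HARS1 and 13.3% in MARS1. The gene with the largest part of that share was, in the same order, a readthrough gene (ENSG00000269547), GTF2H4, HARS1, WDR55 and ARHGAP9. SARS2 held between 11 and 122 counts in the mRNA libraries.

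**Figure D1:**
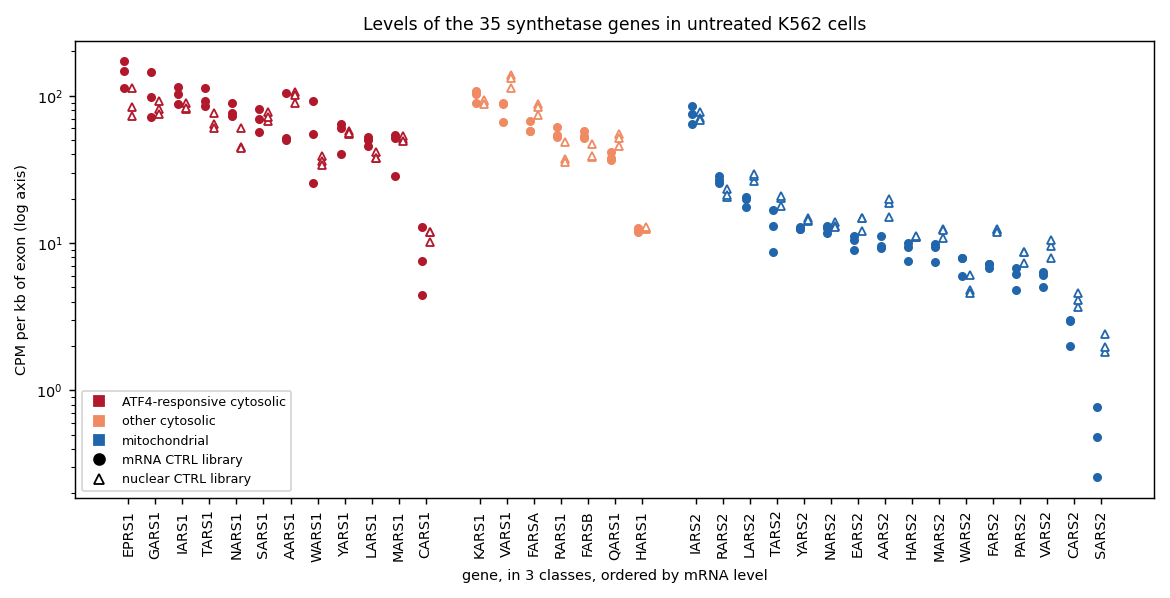
CPM per kb of exon (log axis) of the 35 genes in the 3 mRNA CTRL libraries (filled circles) and the 3 nuclear CTRL libraries (open triangles), grouped by class and ordered by mRNA level. The mitochondrial genes lie lower, at a median of 9.50 against 61.0 CPM per kb for the cytosolic genes in mRNA, with IARS2 at 74.9 as the exception.

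The replicate libraries of mRNA varied more in the ATF4-responsive genes than in the other classes by the median, with exceptions on both sides. The SD of the log2 level within groups, pooled over the 9 mRNA groups, had a median of 0.33 for the 12 ATF4-responsive genes, 0.17 for the other 7 cytosolic genes and 0.18 for the mitochondrial genes. WARS1, the tryptophan enzyme, varied most, with an SD of 0.89 and CTRL libraries at 163, 352 and 583 CPM. Within the ATF4-responsive list LARS1 (0.11) and NARS1 (0.13) varied little, and outside it SARS2 (0.39), TARS2 (0.36) and FARSA (0.30) varied more than most. AARS1, for alanine, was at 232, 473 and 225 CPM in the same libraries. In nuclear RNA the 3 medians were 0.19, 0.18 and 0.16, and WARS1 was at 249, 230 and 217 CPM in CTRL.

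The genes of the amino acid stress response (ATF4, DDIT3, ASNS, TRIB3, CHAC1, SESN2, PSAT1, PHGDH and CEBPB) varied between the same libraries. Their median SD was 0.93 in mRNA and 0.39 in nuclear RNA. CHAC1, a glutathione-degrading enzyme induced by ATF4, was at 0.28, 47.4 and 0.56 CPM in the mRNA CTRL libraries. The library with the lowest mean level of the ATF4-responsive synthetases was also the one with the lowest mean level of the stress genes in 8 of the 9 mRNA groups and 5 of the 5 nuclear groups, and the highest library was shared in 7 of 9 and 3 of 5. The lowest library was replicate 1 in CTRL and replicate 2 in IM 1h, IM 6h, JTE 1h, JTE 6h, KCl 1h and KCl 3h, by the numbers of the labels. The read totals in the study give the first and the second mRNA CTRL library each other's numbers, and by that numbering the lowest CTRL library has the number of the lowest library in those treated groups. The part of this variation in the results on ATF4-responsive genes was not tested by itself. A fit with a term for the replicate number, with CTRL numbers exchanged, added GARS1, MARS1 and YARS1 in JTE 18h against CTRL. The same fit changed no member call in IM 18h against CTRL. In JTE 18h, by contrast, the 3 libraries were close, with WARS1 at 169, 176 and 185 CPM.

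**Figure D2:**
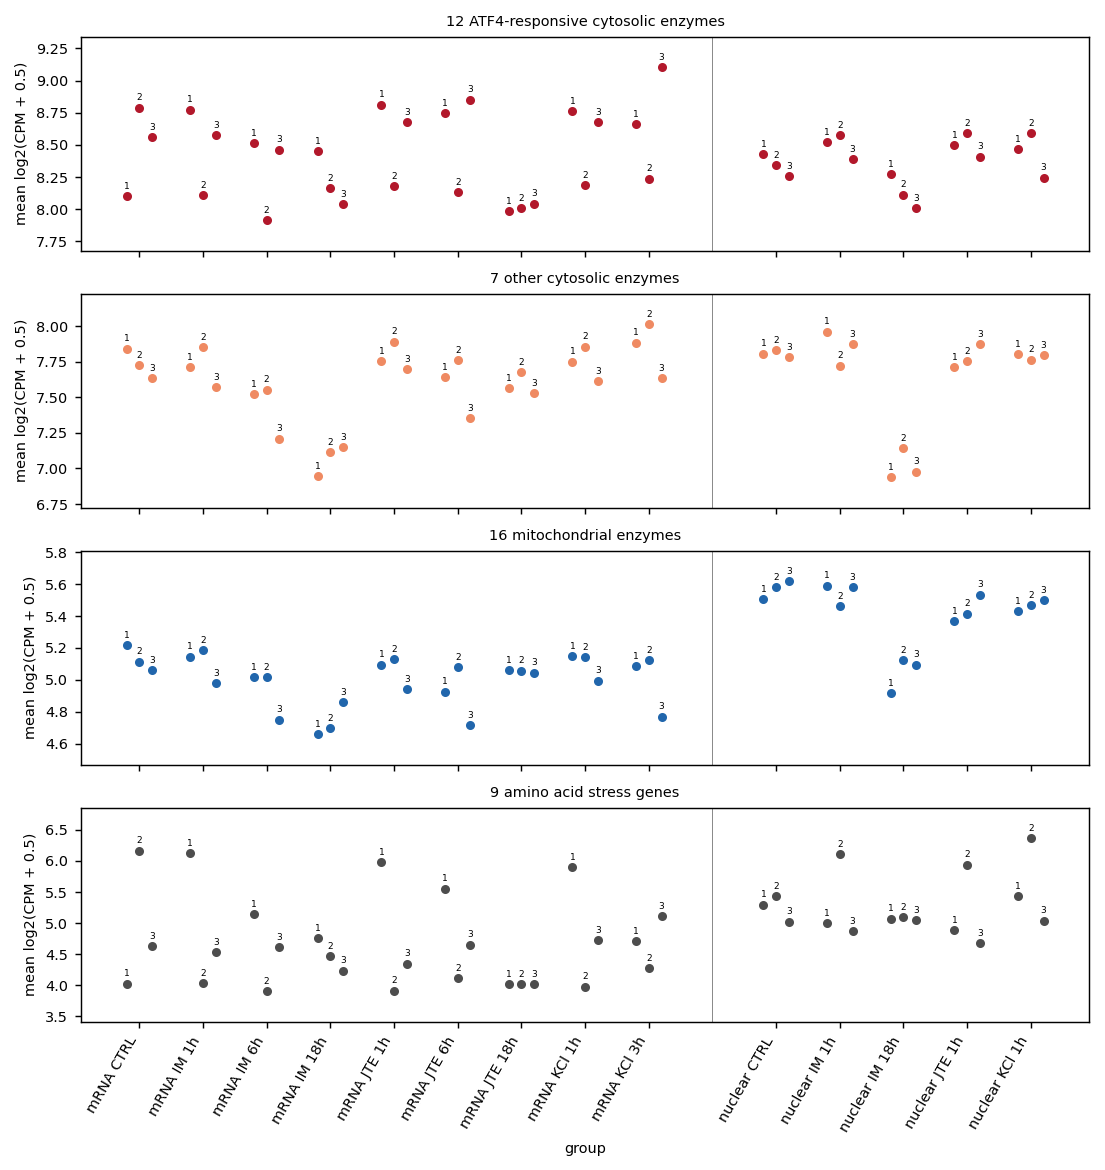
Mean log2(CPM + 0.5) of 12 ATF4-responsive cytosolic, 7 other cytosolic and 16 mitochondrial synthetase genes and of 9 amino acid stress genes, one point per library with its replicate number. The ATF4-responsive means of the mRNA libraries span up to 0.86 (KCl 3h) and the stress means up to 2.14 (CTRL), while the other cytosolic genes of IM 18h (6.95 to 7.15) lie below those of CTRL (7.64 to 7.84) without overlap.

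Imatinib for 18 h lowered more members than any other treatment, and the question here was whether it touched both classes alike. In mRNA 13 of the 35 members were called lower, 8 of 19 cytosolic and 5 of 16 mitochondrial genes, where a call needed an edgeR quasi-likelihood adjusted p (Benjamini-Hochberg) under 0.05 and a log2 fold change beyond 0.6. Of all genes tested 13.2% were called lower in this comparison. The median log2 fold change was -0.58 for the cytosolic and -0.26 for the mitochondrial genes, against 0.04 for all genes. The class means of log2(CPM + 0.5) fell about alike. From CTRL to IM 18h they went from 8.21 to 7.80 for cytosolic and from 5.13 to 4.74 for mitochondrial genes. Median and mean thus differ on whether the classes changed alike, and the difference between classes was not tested. Counts are relative within a library, so less RNA of these genes per cell and fewer cells that express them cannot be told apart. The erythroid markers moved in the same libraries, with HBE1 at 1121 ± 350 CPM in CTRL and 4234 ± 1134 CPM in IM 18h, and their part in the result was not tested. No member was called higher by edgeR or DESeq2; QARS1, for glutamine, and VARS2, for mitochondrial valine, had positive values of 0.28 and 0.35 at edgeR unadjusted p of 0.00279 and 0.00454, below the fold threshold.

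**Figure D3:**
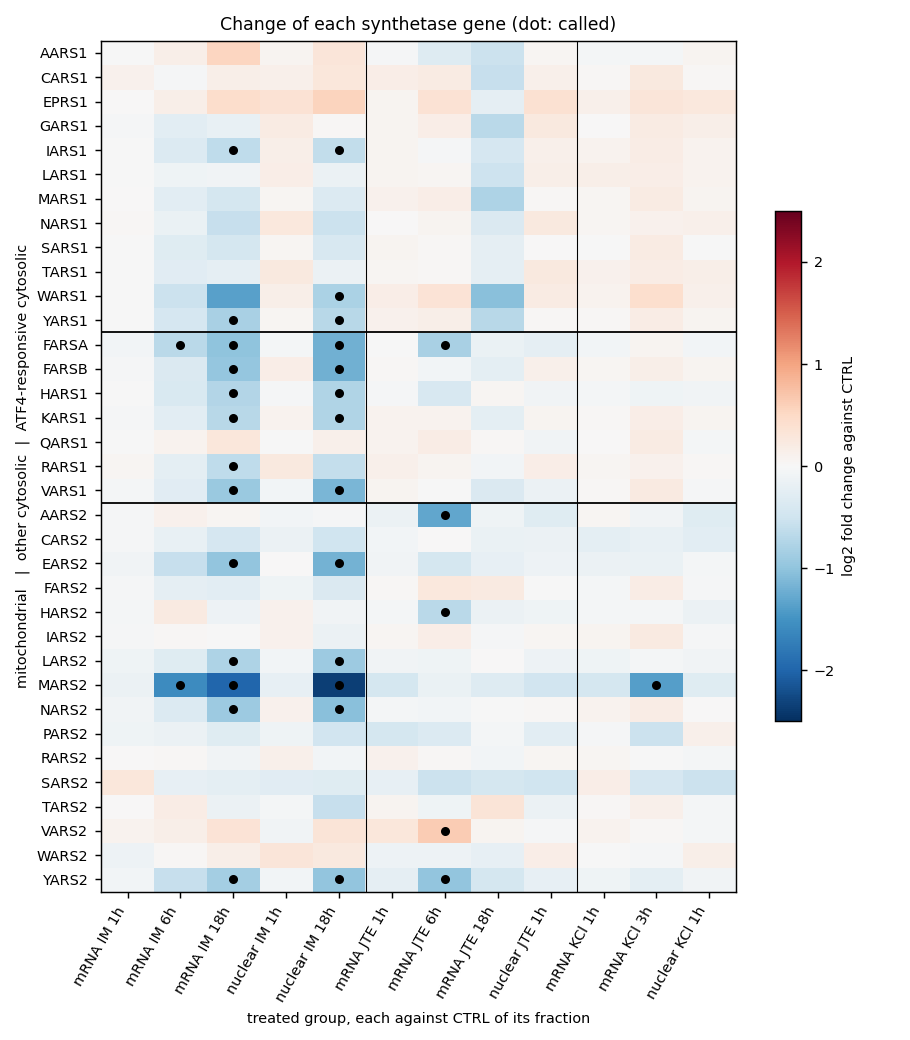
Log2 fold change (colour) of each gene (vertical axis, 3 classes) in each treated group against the CTRL libraries of its fraction (horizontal axis), with a dot where the gene was called. Calls gather in IM 18h of both fractions, 13 in each, and MARS2 is dotted in 4 columns.

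The FARSA and FARSB genes code for the alpha and beta subunits of the cytosolic phenylalanine enzyme, and both decreased. FARSA (ENSG00000179115, chromosome 19, 12922479 to 12934037, hg38) was at 165, 141 and 140.0 CPM in CTRL and at 59.2, 75.9 and 86.5 CPM in IM 18h. FARSB was at 196, 181 and 174 CPM in CTRL and at 81.2, 104 and 97.1 CPM in IM 18h. All IM 18h libraries lay below all CTRL libraries for both subunits, and the changes were of like size: FARSA was 2.01-fold lower (log2 fold change -1.01, SE 0.23, by edgeR at an adjusted p of 0.000987) and FARSB 1.95-fold lower (-0.97, SE 0.12, edgeR adjusted p 1.11e-06). VARS1 (chromosome 6, 31777518 to 31795953) was at 538, 541 and 404 CPM in CTRL and at 232, 274 and 276 CPM in IM 18h. The groups did not overlap, and VARS1 was 1.89-fold lower (log2 fold change -0.92, SE 0.15, edgeR adjusted p 3.41e-05).

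Calls were counted in both lists of cytosolic enzymes, beside 13.2% of all genes called lower in mRNA. Of the 7 genes outside the ATF4-responsive list, 6 were called lower (FARSA, FARSB, HARS1, KARS1, RARS1 and VARS1), with a median log2 fold change of -0.73 over the 7, and QARS1 was the one with a positive value. Of the 12 ATF4-responsive genes, IARS1 (-0.63) and YARS1 (-0.82) were called, the median was -0.33, and values ran from -1.36 for WARS1 (SE 0.71, edgeR adjusted p 0.133) to 0.53 for AARS1 (SE 0.37, edgeR adjusted p 0.263). In nuclear RNA, where the spreads of the lists were alike, unlike in mRNA, 5 of the 7 and 3 of the 12 were called lower. The share over all genes there was 15.4%. The difference between the lists was not tested. In the multisynthetase complex 3 of 7 genes were called (IARS1, KARS1 and RARS1). IARS1, RARS1 and YARS1 lost their calls in fits that left out 1 library. IARS1 and RARS1 were the called genes nearest the fold threshold. IARS1 was at -0.58 with either CTRL replicate 3 or IM 18h replicate 3 left out, and RARS1 at -0.57 without CTRL replicate 1. NARS1 (-0.58) joined in the fits that lacked CTRL replicate 1, CTRL replicate 3 or IM 18h replicate 2, and CARS2 without CTRL replicate 2. YARS1, for tyrosine, lost its call at edgeR adjusted p of 0.0629, 0.0546 and 0.079 without CTRL replicate 2, IM 18h replicate 2 and IM 18h replicate 3.

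Among the mitochondrial enzymes the largest decrease was that of MARS2, the methionine enzyme and a gene with a single exon (ENSG00000247626, chromosome 2, 197705369 to 197708387). It was at 28.3, 22.3 and 29.9 CPM in CTRL and at 5.21, 6.48 and 8.75 CPM in IM 18h. The libraries did not overlap, and MARS2 was 3.94-fold lower (log2 fold change -1.98, SE 0.20, edgeR adjusted p 6.17e-08), the largest change of any member in any mRNA comparison. Its cytosolic counterpart MARS1 had a log2 fold change of -0.44 (SE 0.37, edgeR adjusted p 0.352).

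EARS2, for glutamate, and NARS2, for asparagine, followed. EARS2 was at 64.0, 60.2 and 51.6 CPM in CTRL and at 25.7, 28.8 and 34.3 CPM in IM 18h (1.98-fold lower, log2 fold change -0.99, SE 0.18, edgeR adjusted p 0.000105). NARS2 was at 41.1, 39.9 and 36.7 CPM in CTRL and at 18.0, 18.2 and 26.6 CPM in IM 18h (1.87-fold lower, -0.91, SE 0.15, edgeR adjusted p 2.65e-05). In both genes every treated library was below every CTRL library, with IM 18h replicate 3 the highest of the treated ones. YARS2, for tyrosine, and LARS2, for leucine, were called at -0.86 and -0.78. The other 11 mitochondrial genes lay between -0.43 (CARS2) and 0.35 (VARS2) and were not called.

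The enzymes of both compartments were also set side by side for each amino acid. For 16 amino acids a mitochondrial member could be set beside its cytosolic partner, with EPRS1 standing for both glutamate and proline. Both were called lower for tyrosine, only the cytosolic enzyme for 5 (phenylalanine, histidine, isoleucine, arginine and valine), only the mitochondrial enzyme for 4 (glutamate, leucine, methionine and asparagine), and neither for 6. Both partners had negative values for 10 of the 16. Values lay far apart for leucine, with LARS2 at -0.78 and LARS1 at -0.08, and for valine, with VARS1 at -0.92 and VARS2 at 0.35. Whether the members of a pair differed was not tested, and the LARS2 and VARS1 calls held in every fit that left out 1 library.

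Nuclear RNA gave calls of the same size after 18 h. There 13 members were called lower, 8 cytosolic and 5 mitochondrial, where 15.4% of all genes were, and DESeq2 also called 13. The medians were -0.53 for the cytosolic and -0.41 for the mitochondrial genes, against 0.00 for all genes. The class means differed from the medians in direction here. Cytosolic minus mitochondrial mean log2 level was 2.58 in nuclear CTRL and 2.68 in nuclear IM 18h. Of the called genes 12 were also called in mRNA; WARS1 was called only in nuclear RNA and RARS1 only in mRNA. WARS1 went from 249, 230 and 217 CPM to 140, 127 and 134 CPM, without overlap (1.74-fold lower, log2 fold change -0.80, SE 0.14, edgeR adjusted p 8.62e-05). RARS1 had a value of -0.60 in nuclear RNA (SE 0.19, edgeR adjusted p 0.0182), just short of the fold threshold, and was called without CTRL replicate 3 or IM 18h replicate 1 or 2.

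MARS2 had the largest nuclear change of the members as well. It was at 32.8, 37.8 and 37.3 CPM in nuclear CTRL and at 5.35, 8.79 and 7.14 CPM in nuclear IM 18h (5.09-fold lower, log2 fold change -2.35, SE 0.16, edgeR adjusted p 1.13e-09). FARSA was at 180, 214 and 204 CPM in CTRL and at 68.3, 95.9 and 96.8 CPM in IM 18h, FARSB changed by -1.19 and VARS1 by -1.14 on the log2 scale. EARS2 changed by -1.19, NARS2 by -1.04, YARS2 by -0.98 and LARS2 by -0.91. All of these groups were without overlap. Among the 13 calls IARS1 alone depended on a library: it was at -0.54 without CTRL replicate 1 or IM 18h replicate 3, and at -0.59 without CTRL replicate 2 or 3. EPRS1 had the highest value of the members, 0.56 (SE 0.22, edgeR adjusted p 0.056), overlapped with CTRL, and was called without CTRL replicate 1 or IM 18h replicate 3. TARS2 joined without CTRL replicate 1 or IM 18h replicate 2 or 3, and NARS1 without IM 18h replicate 1.

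An interaction test of nuclear against mRNA changes gave no call among the members at IM 18h, where 0.0901% of all genes were called, and DESeq2 called none either. No member reached an unadjusted p under 0.05 in this test. The largest difference was that of WARS1, at 0.62 on the log2 scale (SE 0.51), a gene with the wide mRNA spread described above.

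**Figure D4:**
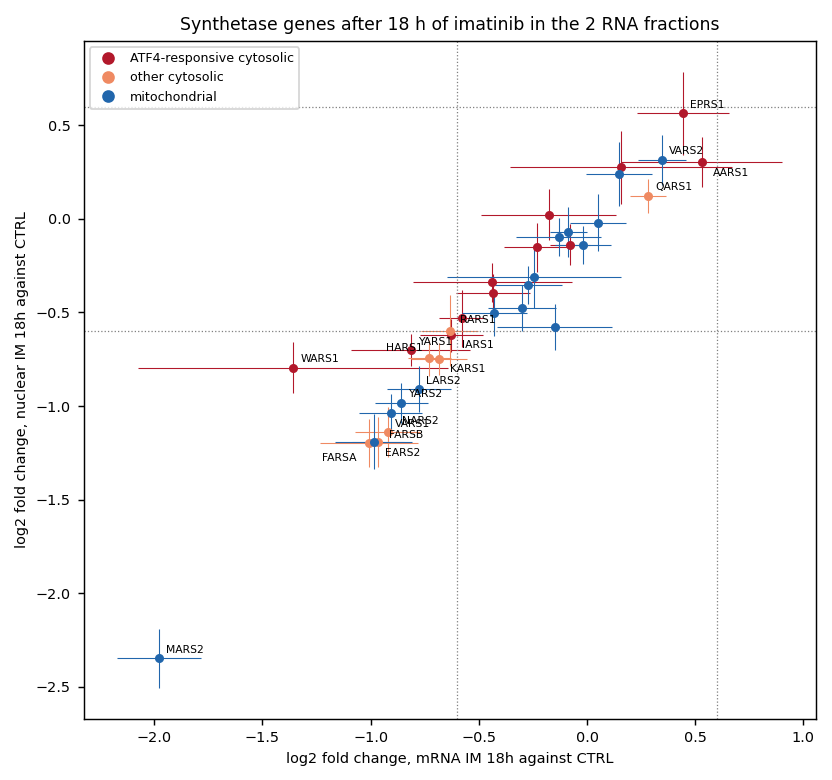
Log2 fold change after 18 h of imatinib in mRNA (horizontal axis) and nuclear RNA (vertical axis) for the 35 genes, with SE bars and dotted lines at the fold threshold of 0.6 in each direction. MARS2 lies lowest on both axes (-1.98 and -2.35), and WARS1 has the longest mRNA bar (SE 0.71).

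Earlier times of imatinib were tested next. At 1 h no member was called in mRNA by edgeR or DESeq2, and none had an edgeR unadjusted p under 0.05; 0.0166% of all genes were called. Values in mRNA ran from -0.14 to 0.28. In nuclear RNA at 1 h the member count was also 0 with both tools and 0 at an unadjusted p under 0.05, beside 0.0456% of all genes, and values ran from -0.28 to 0.35. The interaction test at 1 h called 0 members and 0.0% of all genes, with no member at an unadjusted p under 0.05 and none called by DESeq2.

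At 6 h, MARS2 and FARSA were called lower in mRNA, 2 of 35 members beside 4.12% of all genes. MARS2 was already at 10.6, 7.60 and 8.75 CPM, all below the CTRL libraries (2.99-fold lower, log2 fold change -1.58, SE 0.19, edgeR adjusted p 7.55e-06). FARSA was at 94.9, 102 and 82.0 CPM, also without overlap (log2 fold change -0.67, SE 0.22, edgeR adjusted p 0.0422). The FARSA call was lost in each of the 6 fits that left out 1 library, with edgeR adjusted p between 0.0565 and 0.155. YARS2 (-0.58), EARS2 (-0.57), HARS1 (-0.38) and FARSB (-0.35) had edgeR adjusted p of 0.00176, 0.029, 0.0106 and 0.0437 but changes under the fold threshold. YARS2 and EARS2 passed it without CTRL replicate 3 or IM 6h replicate 1, and YARS2 also without IM 6h replicate 2, so the count ran from 1 to 3. All 4 were called lower at 18 h.

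Between 6 and 18 h of imatinib 2 members decreased further, FARSB by 0.61 (SE 0.12, edgeR adjusted p 0.00314) and VARS1 by 0.63 (SE 0.15, edgeR adjusted p 0.0122) on the log2 scale, beside 1.93% of all genes called lower. VARS1 was at 447, 466 and 299.9 CPM at 6 h and FARSB at 160, 151 and 120 CPM, above the 18 h libraries in each case. Neither was called without IM 18h replicate 1 or without IM 6h replicate 1 or 2, where FARSB was at -0.52, -0.53 and -0.57 and VARS1 at -0.56, -0.56 and -0.52. NARS2 joined them without replicate 3 of either group, for a count of 3. MARS2 was at -0.40 after 6 h (SE 0.20, edgeR adjusted p 0.214) and was not called.

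**Figure D5:**
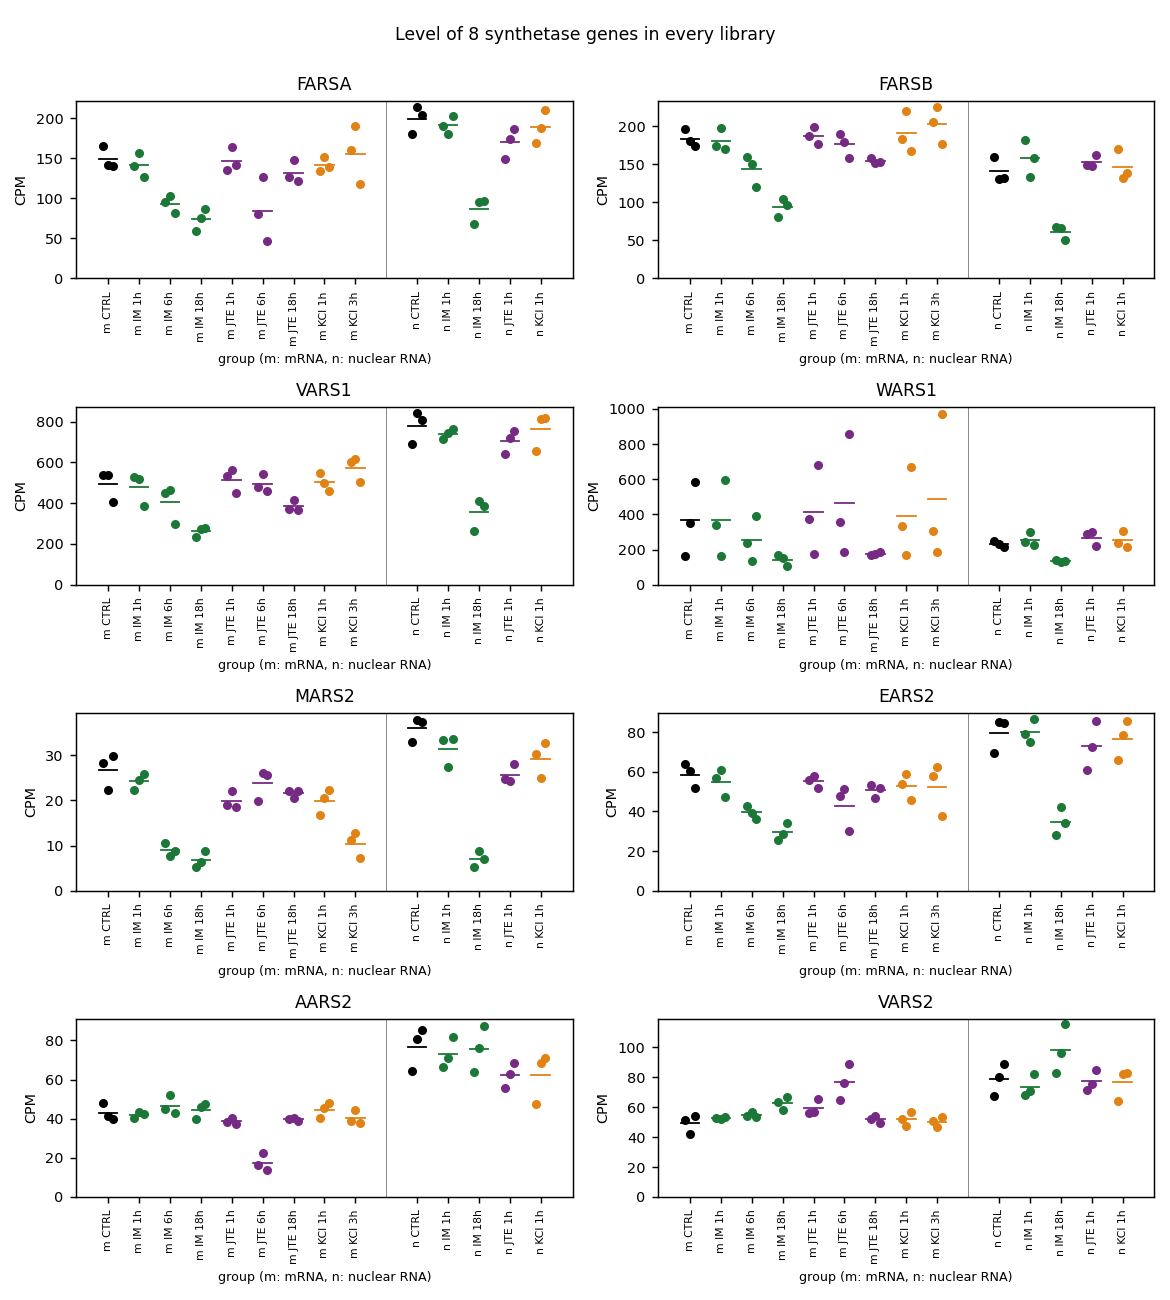
CPM of 8 genes in every library (points, vertical axes from 0) with group means (lines), mRNA groups at left and nuclear groups at right of each panel. FARSA, FARSB, VARS1, MARS2 and EARS2 are low in IM 18h of both fractions, AARS2 (13.9 to 22.4 CPM) is low and VARS2 (64.8 to 89.1 CPM) high in JTE 6h, and WARS1 spreads widely in most mRNA groups.

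JTE-607 was followed over the same times as imatinib. At 1 h no member was called in mRNA by edgeR or DESeq2, 3 (MARS2, PARS2 and VARS2) had edgeR unadjusted p under 0.05, and 0.851% of all genes were called. In nuclear RNA at 1 h none was called by either tool, 3 (MARS2, PARS2 and SARS2) had unadjusted p under 0.05, and 8.52% of all genes were called. MARS2, at -0.48 in nuclear RNA (SE 0.14, edgeR adjusted p 0.0355), was under the fold threshold. The interaction test called no member with either tool and 0.0605% of all genes, and no member had an unadjusted p under 0.05.

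At 6 h of JTE-607, 4 members were called lower and 1 higher, beside 6.47% and 6.73% of all genes. AARS2, the mitochondrial alanine enzyme (ENSG00000124608, chromosome 6, 44299654 to 44313326), was at 47.8, 41.3 and 39.7 CPM in CTRL and at 16.1, 22.4 and 13.9 CPM in JTE 6h. The groups did not overlap, and AARS2 was 2.46-fold lower (log2 fold change -1.30, SE 0.13, edgeR adjusted p 1.74e-07). In JTE 18h it was at 39.7, 40.4 and 38.9 CPM, close to CTRL, and the rise from 6 to 18 h was itself called (log2 fold change 1.19, SE 0.13, edgeR adjusted p 2.05e-06). AARS2 was not lowered by imatinib, with 39.9, 46.0 and 47.7 CPM in IM 18h, and its cytosolic partner AARS1 was not called in JTE 6h.

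YARS2 was at 26.8, 27.7 and 26.9 CPM in CTRL and at 12.4, 15.2 and 13.2 CPM in JTE 6h, without overlap (1.99-fold lower, SE 0.12 on the log2 scale, edgeR adjusted p 2.3e-06). It is among the few members lowered in both the imatinib and the JTE-607 arm, comparisons that share the CTRL libraries; the others were FARSA and, in the KCl and imatinib arms, MARS2. HARS2, for mitochondrial histidine, was at 34.1, 32.1 and 25.8 CPM in CTRL and at 21.1, 25.1 and 11.3 CPM in JTE 6h (log2 fold change -0.68, SE 0.20, edgeR adjusted p 0.0169). FARSA was at 80.1, 127 and 47.1 CPM in JTE 6h (log2 fold change -0.81, SE 0.23, edgeR adjusted p 0.0126). VARS2 was the one member called higher, from 51.4, 42.4 and 54.1 CPM to 64.8, 75.9 and 89.1 CPM without overlap (a log2 difference of 0.64, SE 0.11, edgeR adjusted p 0.00017). JTE 6h replicate 3 was the lowest library for AARS2, HARS2 and FARSA and the highest for VARS2. Without it 2 members were called, AARS2 and YARS2, and FARSA, HARS2 and VARS2 were at -0.52, -0.41 and 0.51; without CTRL replicate 1 or 2 the count was 3, with FARSA and HARS2 at -0.73 and -0.60 without replicate 1, and HARS2 at -0.67 and VARS2 at 0.52 without replicate 2. FARSA also lost its call without JTE 6h replicate 1 (edgeR adjusted p 0.0523).

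After 18 h of JTE-607 no member was called by edgeR or DESeq2, beside 5.39% of all genes, although 9 had an edgeR unadjusted p under 0.05. All 12 ATF4-responsive genes had negative values, from -1.05 to -0.22 with a median of -0.52, while the median of the mitochondrial genes was -0.09 and that of all genes -0.01. With a replicate block, 1 member (YARS1) was called lower by the numbers of the labels and 3 (GARS1, MARS1 and YARS1) with the CTRL numbers exchanged. LARS1 (-0.52, edgeR adjusted p 0.000854), NARS1 (-0.36, edgeR adjusted p 0.0303) and YARS2 (-0.44, edgeR adjusted p 0.0224) were under the fold threshold. The stress genes had a median of -1.51 in the same comparison, and DDIT3, a transcription factor induced with ATF4, was called lower. Against JTE 6h, 3 members were called at 18 h beside 13.4% of all genes, and 5 in the block fit with exchanged CTRL numbers, which added GARS1 and MARS1: AARS2 and FARSA (0.64) higher and YARS1 lower (-0.84, SE 0.28, edgeR adjusted p 0.0325). FARSA overlapped between these groups and kept its call without JTE 6h replicate 2 only, with values from 0.35 to 0.71 in the other fits; YARS1 kept it only there as well, with edgeR adjusted p from 0.075 to 0.164 in the other fits. Without JTE 6h replicate 2 the member count was 9, and without JTE 6h replicate 3 or JTE 18h replicate 1 or 3 it was 1, AARS2.

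KCl left the members largely where they were, apart from MARS2. At 1 h no member was called in mRNA by edgeR or DESeq2, MARS2 alone had an edgeR unadjusted p under 0.05, and 5.45% of all genes were called. In nuclear RNA at 1 h none was called by either tool, CARS2 and SARS2 had unadjusted p under 0.05, and 23.8% of all genes were called. SARS2 (-0.54, edgeR adjusted p 0.0189) passed the fold threshold without CTRL replicate 1 or KCl 1h replicate 2, so the count was 1 in those fits. The interaction test called no member with either tool, beside 0.668% of all genes, and AARS2 was the one member with an unadjusted p under 0.05.

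At 3 h MARS2 was at 11.2, 12.7 and 7.18 CPM against 28.3, 22.3 and 29.9 CPM in CTRL, without overlap (2.59-fold lower, log2 fold change -1.37, SE 0.19, edgeR adjusted p 1.17e-05). It was the 1 member called lower, beside 7.33% of all genes. Its KCl 1h libraries, at 16.9, 20.4 and 22.2 CPM, lay between, and the decrease from 1 to 3 h was called (log2 fold change -0.94, SE 0.19, edgeR adjusted p 0.00264) beside 1.92% of all genes. PARS2, the mitochondrial proline enzyme, joined at 3 h without CTRL replicate 1 or KCl 3h replicate 1, and from 1 to 3 h without KCl 1h replicate 2, so that the count was 2 in these fits. The 19 cytosolic genes had a median of 0.19 at 3 h, with 17 positive values, none of them called.

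The drugs were also compared with each other at the same times. At 6 h, AARS2 (1.42) and HARS2 (0.91) were higher and MARS2 (-1.41) lower in IM than in JTE, 3 members beside 23.8% of all genes. At 18 h, 9 members differed beside 30.3% of all genes. MARS2 (-1.66), NARS2 (-0.90), FARSA (-0.84), LARS2 (-0.79), HARS1 (-0.78), EARS2 (-0.78) and FARSB (-0.71) were lower in IM 18h, and AARS1 (1.06, SE 0.38, edgeR adjusted p 0.0275) and EPRS1 (0.68, SE 0.21, edgeR adjusted p 0.0137) higher. AARS1 was at 579, 403 and 362 CPM in IM 18h and at 215, 208 and 222 CPM in JTE 18h, without overlap. Its call was lost without IM 18h replicate 1 (0.83) or any JTE 18h library (1.02 to 1.06), and that of EPRS1 without IM 18h replicate 1 (0.56). VARS1 joined without IM 18h replicate 2 or 3 or JTE 18h replicate 1 or 3, and RARS1 without replicate 3 of either group.

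Cytosolic and mitochondrial enzymes were compared as classes in every group by the difference of their mean log2(CPM + 0.5) in each library. In mRNA CTRL the difference was 2.79, 3.28 and 3.16, and in IM 18h it was 3.24, 3.08 and 2.85. In nuclear CTRL it was 2.69, 2.57 and 2.46, and in IM 18h 2.86, 2.63 and 2.53. The range of the treated libraries overlapped with that of CTRL in all 12 treated groups. Within pairs of the same replicate number, however, the nuclear difference was larger in the treated library in 12 of 12 pairs, by 0.031 to 0.29, pairs that share the 3 CTRL libraries. The mRNA pairs did not agree. By the labels it was larger in 1 of 3 pairs in IM 18h, 0 of 3 in JTE 18h and 2 of 3 in each other group. With CTRL numbers exchanged it was larger in 1 of 3 in IM 6h, IM 18h and JTE 18h, and in 2 or 3 of 3 elsewhere. The classes themselves did move in IM 18h: the mitochondrial mean was 5.06 to 5.22 in CTRL and 4.66 to 4.86 in IM 18h in mRNA, and 5.51 to 5.62 and 4.92 to 5.13 in nuclear RNA, without overlap. The mitochondrial mean was also just below CTRL in IM 6h (4.75 to 5.02, lowest CTRL library 5.06). It was so in nuclear KCl 1h too (5.43 to 5.50, lowest CTRL library 5.51). The cytosolic mean was 8.01 to 8.40 in CTRL and 7.71 to 7.90 in IM 18h in mRNA, without overlap. In nuclear RNA the cytosolic mean was 8.08 to 8.20 and 7.63 to 7.78, also without overlap. It was below CTRL in JTE 18h too (7.83 to 7.89) and just above CTRL in nuclear JTE 1h (8.21 to 8.28). The mean of the ATF4-responsive genes overlapped between CTRL (8.10 to 8.79) and IM 18h (8.04 to 8.45) in mRNA and did so in nuclear RNA too, where it was 8.25 to 8.43 and 8.01 to 8.27. In JTE 18h it was 7.99 to 8.04, below all CTRL libraries, of which replicate 1 was the nearest at 8.10.

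Calls among related genes of translation were of the same sign after 18 h of imatinib. Of all genes tested 13.2% were called lower there in mRNA and 15.4% in nuclear RNA. Among the complex scaffolds (AIMP1, AIMP2 and EEF1E1) AIMP2 was called lower in mRNA (-0.91) and nuclear RNA (-1.03). Of the 4 genes that make mitochondrial glutaminyl- and formylmethionyl-tRNA (QRSL1, GATB, GATC and MTFMT), QRSL1 was called lower in mRNA and QRSL1, GATC and MTFMT in nuclear RNA. Of 5 elongation factor genes tested, the mitochondrial factors TUFM (-0.74) and TSFM (-0.92) were called lower in both fractions. The cytosolic EEF1A1, EEF1B2 and EEF1D were called in neither. EEF1G was at 0 counts in every library. Whether the counting, which left out pairs over exons of several genes, set that level was not tested. EEF1A1 was higher in mRNA IM 18h without overlap (0.38, edgeR adjusted p 6.84e-05), below the fold threshold. EEF1B2 was at -0.17 and EEF1D at 0.04 there. Of the 9 stress genes TRIB3, an inhibitor of ATF4 and of the kinase AKT, was called lower in mRNA (-1.42), and TRIB3 (-1.35) and PSAT1 (-0.83), a serine synthesis enzyme, in nuclear RNA. In JTE 6h, AIMP2 (-0.60) and GATC (-0.61) were called lower, beside 6.47% of all genes.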

How the data were processed

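The authors deposited raw counts of read pairs per gene, 1 table for mRNA (27 libraries, 9 groups) and 1 for nuclear RNA (15 libraries, 5 groups). Per the study's methods, reads were trimmed and deduplicated with fastp and aligned to hg38 with STAR (unique reads only, introns up to 10000 bases). They were counted over exons with featureCounts without a strand option. Antisense reads therefore count for a gene, and pairs over exons of several genes are lost. The annotation release was not given in the sources used here; all 35 members lay at their GENCODE 44 position. Duplicate removal without molecular identifiers can lower high counts.

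The count test was edgeR 4.0.16 run under R 4.3.3 (TMM, filterByExpr, robust quasi-likelihood, all libraries of a fraction in 1 fit); p-values were adjusted over all genes tested. Thresholds were those of the study (adjusted p 0.05, log2 fold change 0.6). The nuclear-minus-mRNA difference was an interaction. The fits were tested on simulated counts. The alternatives were DESeq2 1.42.0, RLE and upper-quartile scaling, no low-count filter, no fold threshold, fits of only the groups compared, a replicate block (also, added after seeing the data, with the mRNA CTRL numbers exchanged), thinned counts, leaving out genes above 1% of counts, and leaving out each library. Class levels are means of log2(CPM + 0.5). Values per library are given for the 3 called members with the largest rises and falls in each class and treatment arm, at the mRNA time with most member calls; WARS1, AARS1, nuclear values and other times were added after their values were seen. Members and lists were chosen with earlier results of these data known. Replicates are biological per the study, and no pair of them agreed within sampling noise (chi-square per gene 2.23 to 54.2).

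Replicate numbers come from the sample titles. In nuclear RNA, deviations from group means correlated between same-numbered treated and CTRL libraries in every pair (0.233 to 0.890), so the numbers pair those libraries.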

Additional observations from a re-analysis of the deposited data

Results flagged for a closer look

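Effects against CTRL that differed between 2 times of the same treatment, by a direct edgeR test of the later against the earlier time, were found for 6 combinations of gene and treatment. Under imatinib FARSB and VARS1 were lower at 18 h than at 6 h, by log2 fold changes of -0.61 and -0.63. Under JTE-607 AARS2 and FARSA were higher at 18 h than at 6 h, by 1.19 and 0.64, and YARS1 was lower, by -0.84. Under KCl MARS2 was lower at 3 h than at 1 h, by -0.94. Of these, AARS2 and MARS2 were called in every fit that left out 1 library; the other 4 were lost in between 3 and 5 of 6 such fits.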

How the results depend on the processing

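Of 52 calls, all were kept with DESeq2, RLE scaling, the replicate block by the labels' numbers and thinned counts; 6 were lost with upper-quartile scaling, 4 with fits of only the 2 groups, and 1 each without the filter and without genes above 1% of counts. No call changed sign. Upper-quartile scaling moved the median of all genes by 0.12 in nuclear IM 18h, where IARS1 (-0.50) and YARS1 (-0.58) lost their calls, and IARS1 (-0.56) and RARS1 (-0.56) lost theirs in mRNA IM 18h.

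In mRNA IM 18h the member count ran from 11 with upper-quartile scaling to 18 without a fold threshold, against the 13 calls above. Elsewhere member counts moved as follows, with smaller moves not listed. Without a fold threshold they were 6 in IM 6h, 3 in JTE 18h, 2 in KCl 3h, 21 in nuclear IM 18h, 1 in nuclear JTE 1h, 1 in nuclear KCl 1h, 6 in IM 18h against 6h, 8 in JTE 18h against 6h, 7 in IM against JTE at 6 h and 17 at 18 h. Without the low-count filter they were 4 in IM 6h, 4 in JTE 18h (GARS1, MARS1, WARS1 and YARS1) and 7 in JTE 18h against 6h. Upper-quartile scaling gave 1 in IM 6h and 1 in IM 18h against 6h, and leaving out abundant genes 4 in IM 6h. Fits of only the 2 groups gave 3 in JTE 6h, 1 in JTE 18h (YARS1) and 0 in KCl 3h against 1h, and DESeq2 5 in JTE 18h against 6h. The cause was not tested.

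With the replicate block 1 member (YARS1) was called in JTE 18h against CTRL and 4 in JTE 18h against 6h, and no other call changed in either fraction. By the labels, same-numbered mRNA libraries correlated with CTRL at -0.363 to 0.876, and no group had more than 1 of 3 that correlated best with its own number. The study's read totals give the first and the second mRNA CTRL library each other's numbers, which was seen after the data. With that exchange the correlations were 0.0546 to 0.876, above 0.1 for every pair but in JTE 18h, so which numbering is right bears on the block. With it, 3 of 3 libraries correlated best with their own number in every group but IM 18h and JTE 18h, which had 2 of 3. The block with exchanged numbers kept all 39 mRNA calls and gave 3 in JTE 18h against CTRL and 5 in JTE 18h against 6h.

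Leaving out 1 library gave 11 to 13 calls in IM 18h, 12 to 15 in nuclear IM 18h, 1 to 3 in IM 6h, 2 to 5 in JTE 6h, 1 to 2 in KCl 3h, 0 to 1 in nuclear KCl 1h, 0 to 3 in IM 18h against 6h, 1 to 9 in JTE 18h against 6h, 1 to 2 in KCl 3h against 1h and 7 to 11 in IM against JTE at 18 h. The cytosolic minus mitochondrial median in nuclear IM 18h ran from -0.31 to 0.053, so its sign rested on single libraries. SARS2, with 11 to 122 counts in mRNA, is limited by depth.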

Other observations

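In 2 mRNA groups, JTE 6h and KCl 3h, replicate 3 was the highest library for one synthetase class and the lowest for another. The ATF4-responsive mean log2 level was highest there, in JTE 6h by a small margin (8.85 against 8.75 and 8.13 in JTE 6h, and 9.10 against 8.66 and 8.24 in KCl 3h), while the mitochondrial mean was lowest (4.72 against 4.93 and 5.08, and 4.77 against 5.09 and 5.12). WARS1 was at 859 CPM in JTE 6h replicate 3 and at 970 CPM in KCl 3h replicate 3, the highest values of the gene in any library. PHGDH, the first enzyme of serine synthesis, was at 162 and 188 CPM in the same libraries and at or below 27.6 CPM in the other libraries of these groups.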
